A study of Mus musculus with 22 samples.

Results

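The chains of laminin were followed in FE1 mouse lung epithelial cells exposed to carbon nanotubes. The group holds 9 genes, Lama1, Lama2, Lama3, Lama4, Lama5, Lamb1, Lamb2, Lamb3 and Lamc1, of the 20018 genes that could be named on the array, and 11 probes of 55681. Its probes were found by gene name, through the transcript accession of each probe. The family was selected on a result already known from these arrays, the lower ratios of Lama1 at the low and medium doses. The values of Lama1 are therefore given as a description with no p-value, and no count over the 9 genes is independent evidence about the family.

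Laminin is a cross-shaped trimer of an alpha, a beta and a gamma chain that cells secrete. Its trimers join into the sheet on which a basement membrane is built, nidogen and perlecan tie that sheet to collagen IV, and integrins and dystroglycan on the cell surface hold its alpha chain. In the lung the basement membrane lies under the epithelium of airways and alveoli, and the choice of alpha chain differs between tissues and ages.

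The arrays compare the cell line, derived from the lung of a transgenic mouse (MutaMouse), after 24 h in medium that held Mitsui7, which consists of multi-walled carbon nanotubes. The control group had 0 µg/ml (5 arrays), the low dose 12.5 µg/ml (6 arrays), the medium dose 25 µg/ml (5 arrays) and the high dose 100 µg/ml (6 arrays). All groups shared the line, the culture medium with serum and epidermal growth factor, and 1 reference RNA pooled from 11 mouse cell lines. Sample RNA carried the dye Cy5 and the reference Cy3 on all 22 arrays, with no dye swap, so each value is a log2 ratio of sample to reference and only differences between groups are read. One line in culture stands for the epithelium here. The study reports that cells were exposed in separate experiments, fewer in number than the arrays of a group. The sources do not say which arrays came from which experiment. The arrays may therefore not be independent, and the p-values may measure technical spread only.

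The arrays lay on 5 slides, of which slides 1 to 4 held every group and slide 5 held an array each of the low and the high dose. Between 23688 and 39139 probes exceeded the level of the negative control spots in Cy5, a level that lay between 74.3 and 119 intensity units. Of 8 epithelial markers 6 passed the detection filter (at least 4 arrays of any group), with Krt8 and Krt18 above that level on all 22 arrays and Cdh1 on 0 of 22. All 7 mesenchymal markers were detected. Differences were tested with limma over all probes with slide as a term, and a gene was called at an adjusted p (Benjamini-Hochberg over all 55681 probes) of at most 0.05 with a change of at least 1.5-fold. A call also needed detection on at least 4 arrays of either group compared.

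The RefSeq table used here holds the start of 5 of the 9 genes. Lamb1 and Lama5 are the pair among them that was called, in opposite directions, and the 250 bases before each start are shown for that reason. They lie at chr12:31265043-31265292 (plus strand, Lamb1) and chr2:180225860-180226109 (minus strand, Lama5) of GRCm38.p6, upstream of the first exon. The array itself was annotated on mm9, and no coordinate was carried between builds. Capitals mark the motifs searched on both strands, which were the GC box GGGCGG, the CCAAT box, the TATA box TATAAA, the cyclic AMP element core TGACGT, the AP-1 site TGACTCA and the E-box CACGTG.

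Lamb1: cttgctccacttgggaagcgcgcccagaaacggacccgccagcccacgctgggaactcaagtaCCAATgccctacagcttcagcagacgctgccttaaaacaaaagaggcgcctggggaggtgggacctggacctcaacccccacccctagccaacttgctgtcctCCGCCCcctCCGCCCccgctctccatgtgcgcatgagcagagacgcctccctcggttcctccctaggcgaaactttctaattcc
Lama5: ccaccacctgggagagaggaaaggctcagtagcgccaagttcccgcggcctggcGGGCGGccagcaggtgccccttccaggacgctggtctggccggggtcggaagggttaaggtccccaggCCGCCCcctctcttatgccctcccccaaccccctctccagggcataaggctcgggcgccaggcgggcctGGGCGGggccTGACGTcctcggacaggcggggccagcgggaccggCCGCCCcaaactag

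The Lamb1 stretch held the GC box at 2 places, 84 and 75 bases before the start, and the CCAAT box 187 bases before it, with none of the other 4 motifs. The Lama5 stretch held the GC box at 4 places, 196, 128, 59 and 14 bases before the start, and the TGACGT core 49 bases before it. No motif overlapped another. Among 32851 promoter stretches of the same length, 32.7% held the GC box, 33.8% the CCAAT box and 6.47% the TGACGT core. The G and C content was 62.0% for Lamb1 and 72.4% for Lama5, with a median of 52.4% over all stretches. Each match is a description of the letters and not a site of binding. Starts of Lama2, Lamb2 and Lamb3 were also in the table, and none of the 6 motifs was found before them.

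In the exposed cells the ratios of 3 alpha chains, Lama1, Lama4 and Lama5, were lower than in the controls and that of the beta chain Lamb1 was higher, while the gamma chain Lamc1 and the other 4 genes were not called at any dose. Lama1 was lower by about 4-fold at the low dose and 6-fold at the high dose, Lama4 was lower by about 2.4-fold to 2.5-fold at all doses, and Lama5 was lower by 1.46-fold to 1.77-fold and called at the low and medium doses. Lamb1 was higher by 1.45-fold to 1.54-fold and called at the medium and high doses. At the low dose 3 of 9 genes were called lower and 0 higher, where 3.32% of the probes detected in that comparison were called (1.96% lower, 1.35% higher). At the medium dose 3 were called lower and 1 higher, against 5.69% of the probes (2.97% lower, 2.72% higher). At the high dose 2 were called lower and 1 higher, against 7.58% of the probes (4.24% lower, 3.34% higher). Lamb3 did not pass the detection filter at the low dose, and all 9 genes passed it at the others. The median change of the 9 genes was 0.02, -0.22 and -0.25 on the log2 scale at the 3 doses, and that of the 33475 probes detected in any group was 0.01, 0.00 and 0.01. These shares are printed for reference, since the family was picked with results from the same arrays known. Each count of genes called lower includes Lama1, whose low and medium dose ratios were what the family was picked on. Besides Lama1 the genes called lower were Lama4 and Lama5 at the low and medium doses and Lama4 at the high dose.

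**Figure D1:**
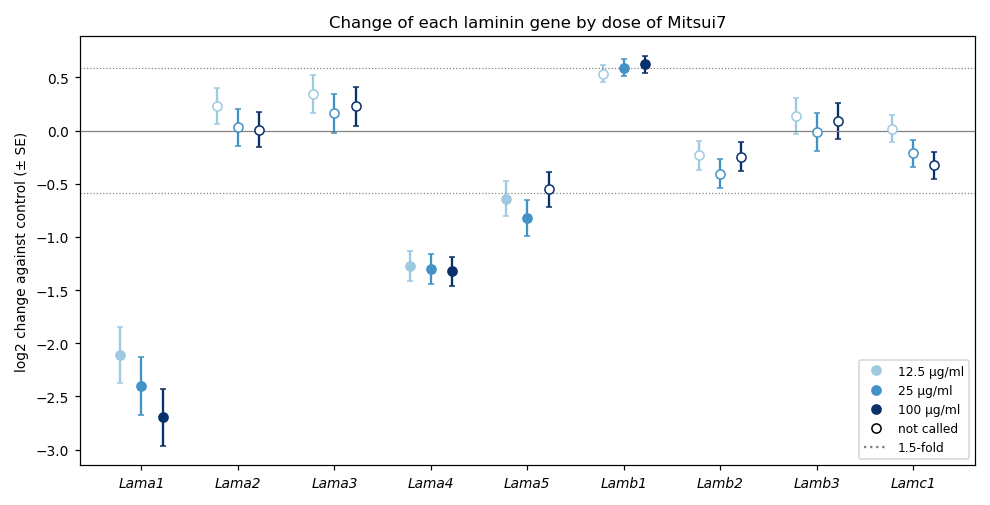
Fitted log2 change of each laminin gene against control (vertical axis) at 12.5, 25 and 100 µg/ml Mitsui7, with bars for the SE and filled points for called changes. Lama1 sits between -2.11 and -2.70, Lama4 near -1.3, Lama5 between -0.55 and -0.82 and Lamb1 between 0.53 and 0.62, while the other 5 genes stay within 1.5-fold of control.

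Lama1 encodes the alpha chain of the laminin laid down in the early embryo and in several developing epithelia. Its probe A_66_P118600 had log2 ratios of 4.10, 2.39, 3.88, 4.02 and 2.04 on the 5 control arrays. On the 6 low dose arrays the ratios ran from 0.58 to 1.80 with a median of 1.10. On the 5 medium dose arrays they were 1.15, 0.79, 1.36, 0.57 and 0.53. The high dose arrays ran from -0.01 to 1.23 with a median of 0.60. Every exposed array lay below every control array, including the lower pair of controls at 2.39 and 2.04.

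The fitted change of Lama1 was -2.11 (SE 0.27, 4.32-fold) at the low dose, -2.41 (SE 0.27, 5.30-fold) at the medium dose and -2.70 (SE 0.27, 6.48-fold) at the high dose. It was negative on each of the 4 slides that held a control, between -2.77 and -1.47 at the low dose, -3.45 and -1.51 at the medium dose and -3.35 and -1.52 at the high dose. Slide 4 gave the smallest of the 4 changes at every dose. The means fell in the order of the doses, from 3.29 ± 0.99 (SD, n = 5) to 1.14 ± 0.42 (n = 6), 0.88 ± 0.37 (n = 5) and 0.55 ± 0.44 (n = 6). The steps from low to medium and from medium to high dose were -0.29 each (SE 0.27), no larger than about their error, and that from low to high was -0.58 (SE 0.25), negative on 5 of 5 slides. On the scanner's own log ratio the changes at the low and medium doses were -1.58 and -2.48, and neither was called there.

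The signal behind these ratios was weak in the exposed cells. The Cy5 intensity of Lama1 was 1045, 195.5, 797, 608 and 175 in the controls, and it was marked well above background on 5 of 5 of these arrays. At the low dose it ran from 90.0 to 177.5 with that mark on 5 of 6 arrays, at the medium dose the mark stood on 4 of 5 and at the high dose on 2 of 6, with intensities of 72.0 to 131.5. The Cy3 signal of the reference was well above background on 3 of 22 arrays. No background was subtracted, and the order of the exposed groups rests on dim spots. With normexp background correction, which adds an offset of 50 to every spot, the 3 changes were -1.73, -1.98 and -2.23. The control arrays with the lower ratios also had the lowest Cy5 intensity of Lamb1, a bright probe, among the controls (11044 and 6246, against 17027 to 37299), and the low dose arrays covered 9316 to 48248 for that probe. The part of array brightness in the spread of the controls was not tested.

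**Figure D2:**
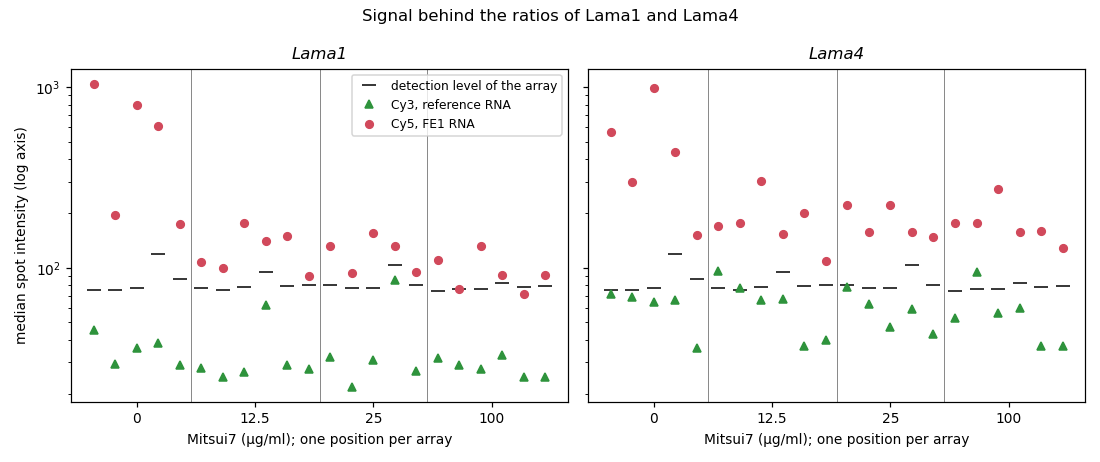
Median spot intensity on a log axis of Lama1 and Lama4 on each of the 22 arrays, grouped by dose, for FE1 RNA (Cy5, circles) and reference RNA (Cy3, triangles), with the negative control level of each array as a bar. Lama1 in the exposed arrays lies between 72.0 and 177.5, close to the bars, whereas the controls lie between 175 and 1045.

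Lama4 encodes the alpha chain found around blood vessels, in muscle and in mesenchymal tissue. Its probe A_51_P212420 read 2.50, 2.44, 3.42, 2.81 and 1.58 in the control arrays. It read 0.84 to 1.67 (median 1.41) at the low dose and 0.85 to 1.71 (median 1.21) at the high dose. The medium dose arrays read 1.25, 1.12, 1.51, 1.30 and 1.04. Control replicate 5, at 1.58, overlapped with 1 low dose and 1 high dose array of slide 2, and once slide differences were removed no exposed array reached a control. Lama4 changed by -1.28 (SE 0.14, limma adjusted p 1.17e-05), -1.30 (SE 0.14, 6.4e-06) and -1.32 (SE 0.14, 1.95e-06) from the low to the high dose, or 2.42-fold, 2.47-fold and 2.50-fold lower. Within slides the change ran from -1.92 to -0.54 and was negative on 4 of 4 slides at each dose. The call held under all 40 alternatives at each dose. The difference between high and low dose was -0.05 (SE 0.13), so no further change with dose was seen above this error. Over the 40 alternatives that difference ran from -0.34 to 0.02. The Cy5 signal of Lama4 was well above background on 22 of 22 arrays, and its reference signal on 16 of 22. Its Cy5 intensity was 109 to 302 at the low dose and 129 to 272 at the high dose. No background was subtracted, and the part of background in the like values of the doses was not tested.

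Lama5 encodes the main alpha chain of adult epithelial basement membranes, which the developing lung needs. The control arrays of probe A_55_P2064321 read -0.13, -0.82, -0.32, -0.57 and -0.38. At the low dose the ratios lay between -1.38 and -0.69 with a median of -1.15. The medium dose gave -1.57, -1.38, -0.80, -1.40 and -1.19. High dose values lay between -1.32 and -0.35 with a median of -1.16. After slide differences were removed, all low and medium dose arrays and 5 of 6 high dose arrays lay below every control, and the exception was high dose replicate 1 at -0.35. The change was -0.64 at the low dose (SE 0.16, limma adjusted p 0.0324), -0.82 at the medium dose (SE 0.17, 0.00417) and -0.55 at the high dose (SE 0.16, 0.0417), the last at 1.46-fold and so not called. In the fit that paired arrays by replicate number (replicate block), the high dose change was -0.59 (adjusted p 0.0136) and was called. Its low dose call was lost under 16 of 40 alternatives, which included the fits without control replicate 1, 3, 4 or 5 or without low dose replicate 1, 2, 4 or 6 (-0.67 to -0.54, adjusted p 0.0542 to 0.102). With median centring neither the low nor the medium dose change of Lama5 was called (-0.79 and -0.73, adjusted p 0.356 and 0.495). Without high dose replicate 1 the high dose change was -0.73 (adjusted p 0.000872) and was called.

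Lama2 encodes the alpha chain of muscle and nerve, and Lama3 that of the laminin which anchors epithelia through hemidesmosomes. The brighter Lama2 probe ranged from -2.52 to -1.02 over all groups, with Cy5 well above background on 4 of 22 arrays, and its changes were 0.23, 0.03 and 0.01 (SE 0.17 each). The Lama3 probe changed by 0.34 (SE 0.18), 0.16 (SE 0.19) and 0.23 (SE 0.18), with adjusted p of 0.430, 0.795 and 0.624 in limma. Low dose replicate 4 read 1.39 for Lama3, and the next highest low dose array read 0.33. A second probe of each gene was well above background on 0 of 22 arrays and was not called either. At this signal a change of Lama2 would be hard to see, so its level is not described further.

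**Figure D3:**
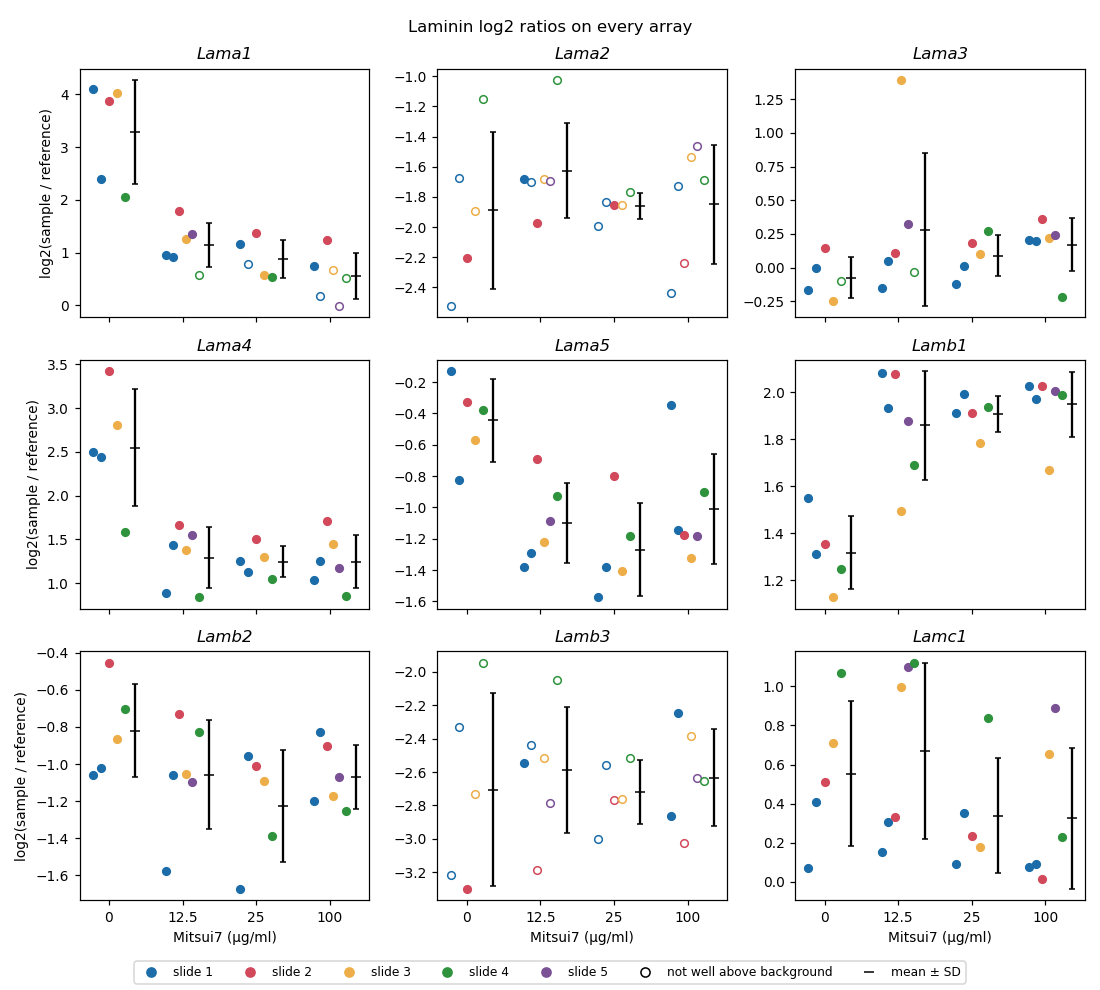
Log2 ratio of FE1 RNA to reference RNA for the brightest probe of each laminin gene (vertical axes differ) on every array by dose of Mitsui7, coloured by slide, with open circles where Cy5 was not well above background and a bar for the mean ± SD of 5 or 6 arrays. In Lama1 all exposed arrays lie below the lowest control at 2.04, and in Lamb1 all medium and high dose arrays lie above the highest control at 1.55.

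Lamb1 encodes the beta chain that most tissues combine with a range of alpha chains. Its probe A_66_P101600 was bright, at 6246 to 52425 intensity units in Cy5, and its control ratios were 1.55, 1.31, 1.35, 1.13 and 1.25. The low dose arrays read from 1.49 to 2.08 with a median of 1.91. The medium dose arrays read 1.91, 2.00, 1.91, 1.78 and 1.94, and the high dose arrays from 1.67 to 2.03 with a median of 2.00. Low dose replicate 4 at 1.49 was the only exposed array that did not exceed every control, and after slide differences were removed none overlapped. The change was 0.53 at the low dose (SE 0.08, limma adjusted p 0.000359), 0.59 at the medium dose (SE 0.08, 9.55e-05) and 0.62 at the high dose (SE 0.08, 2.17e-05). It was positive on 4 of 4 slides at each dose, within 0.37 to 0.74. The low dose change of 1.45-fold was below the fold threshold, though it passed with the series matrix values (0.60, adjusted p 0.000371) and the scanner log ratio (0.82, adjusted p 5.06e-05). In turn, the medium dose change of 1.51-fold was so near it that its call was lost under 10 of 40 alternatives, with values of 0.55 to 0.71. Those losses included control replicate 2, 3 or 5 or medium dose replicate 4 or 5 left out (0.55 to 0.58), where adjusted p stayed at or below 0.000698. With median centring in place of loess the medium and high dose changes of Lamb1 were not called (adjusted p 0.377 and 0.446).

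**Figure D4:**
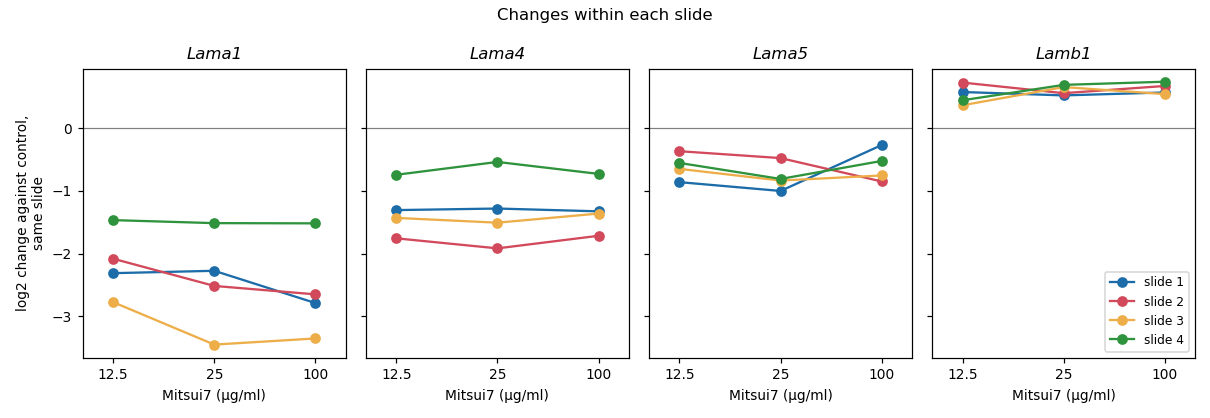
Log2 change against the control array or arrays of the same slide (vertical axis) at 12.5, 25 and 100 µg/ml for Lama1, Lama4, Lama5 and Lamb1, with 1 line for each of the 4 slides that held every group. All lines of Lama1, Lama4 and Lama5 lie below 0 and all lines of Lamb1 above it, and slide 4 has the smallest change of Lama1 (-1.47 to -1.52).

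Lamb2, the beta chain of the neuromuscular junction and the kidney filter, read -1.06, -1.02, -0.45, -0.87 and -0.70 in the controls and -1.67 to -0.73 in the exposed arrays, which overlapped. Its changes were -0.23, -0.40 and -0.25 (SE 0.14 each), with limma adjusted p of 0.491, 0.111 and 0.384. Lamb3, the beta chain that joins with Lama3, was faint, with Cy5 well above background on 4 of 22 arrays and on 0 of 5 at the medium dose. Its ratios spanned -3.30 to -1.95 and its changes 0.14, -0.02 and 0.09 (SE 0.17, 0.18 and 0.17).

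Lamc1 encodes the gamma chain that most laminins share. The controls read 0.07, 0.41, 0.51, 0.71 and 1.07 and the medium dose arrays 0.09, 0.35, 0.23, 0.18 and 0.84. Its low dose arrays ran from 0.15 to 1.12 (median 0.67) and its high dose arrays from 0.01 to 0.89 (median 0.16). All groups overlapped, and in the controls and the low dose arrays slide 4 read higher than slide 1. The changes were 0.02 (SE 0.13), -0.22 (SE 0.13) and -0.33 (SE 0.13), with limma adjusted p of 0.978, 0.492 and 0.145. High against low dose gave -0.34 (SE 0.12, adjusted p 0.350), negative on 5 of 5 slides.

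Lama1 aside, limma called 0 of the other 8 genes between the high and low dose, where 0.26% of all probes tested were called, and 1 of the 8 (Lamc1) had an unadjusted p of at most 0.05. Between high and medium dose and between medium and low dose 0 of the 8 were called and 0 had such a p for their brightest probe. No share of all probes is given for these comparisons or for the unadjusted p. Those counts are therefore not read as a result about laminin.

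The partners of laminin in the basement membrane were read from a list of 24 genes, of which 18 were detected. At the low dose 4 of 18 were called lower, at the medium dose 5 and at the high dose 9, and 0 were called higher at any dose, beside 1.96%, 2.97% and 4.24% of all detected probes called lower. Each gene was counted by its brightest probe. For Sparc another probe was called at the high dose, where the counted probe was not (-0.80, limma adjusted p 0.318). With median centring in place of loess 1, 1 and 3 of the partners were called lower. No share of all probes is given for median centring at these doses, so that drop is not read as a result about the partners. The median change of the partners was -0.41, -0.54 and -0.61. Nid2, a nidogen that links laminin to collagen IV, fell at each dose, with log2 changes of -1.16 (SE 0.13), -1.28 (SE 0.14) and -1.84 (SE 0.14), with limma adjusted p of 7.2e-05, 2.19e-05 and 2.34e-07. Its spots on 1 control, 1 low dose and 2 high dose arrays were marked as outliers and left out, and the remaining ratios were -0.72 to -0.17 in 4 controls and -2.45 to -2.22 in 4 high dose arrays. Smoc2, a calcium-binding matrix protein, fell at the medium dose (-1.03, SE 0.26, adjusted p 0.0223) and the high dose (-1.72, SE 0.26, 0.000125). Hspg2, which encodes perlecan, changed by -0.53 and -0.55 at the lower doses and fell at the high dose (-0.90, SE 0.10, adjusted p 5.09e-06), where a second, dimmer probe was not called. Nid2 and Smoc2 were also lower at the high than at the low dose (-0.68 and -1.28, adjusted p 0.0317 and 0.0223), a call kept in 13 and 16 of 22 fits that left out 1 array. It was lost for Nid2 without low dose replicate 2, 3, 5 or 6 or high dose replicate 1, 2, 3, 4 or 5, and for Smoc2 without low dose replicate 3, 5 or 6 or high dose replicate 2, 3 or 5. The medium dose call of Smoc2 was kept in 18 of 22, lost without control replicate 1 or 3 or medium dose replicate 1 or 4. It was also lost with median centring (limma adjusted p 0.342), the scanner log ratio (0.067), no slide term (0.0882) and without slide 1 or 3 (0.206 and 0.0625). The high against low calls of Nid2 and Smoc2 were lost with median centring, the scanner log ratio and no slide term as well. Of the collagen IV chains, named here after their values were seen, Col4a1 and Col4a2 were not called at any dose (-0.37 and -0.22 at the high dose). Col4a5 was called lower at the low dose (-1.08, limma adjusted p 0.00569) and the high dose (-0.86, 0.014), and not at the medium dose (-0.60, 0.15). Col4a6 was called lower at the medium dose (-0.78, limma adjusted p 0.00184) and the high dose (-0.82, 0.000577), and not at the low dose (-0.56).

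Of 16 genes for laminin receptors and their anchors 15 were detected, with 1, 2 and 2 called lower and 0, 0 and 1 called higher from the low to the high dose (all detected probes 1.96%, 2.97% and 4.24% lower and 1.35%, 2.72% and 3.34% higher), and medians of -0.01, -0.13 and -0.16. Itga1, the alpha subunit of an integrin for collagen and laminin, fell at each dose (-0.89, -1.18 and -1.22, SE 0.15 each), with limma adjusted p of 0.00136, 5.57e-05 and 1.66e-05. Its spot was above the negative control level on 5 of 5 control, 5 of 6 low dose, 4 of 5 medium dose and 3 of 6 high dose arrays, so the high dose comparison passed the detection filter through the controls alone and its size is uncertain. A second probe was not called. Sdc2, a cell surface heparan sulfate proteoglycan, fell at the medium dose (-0.85, SE 0.21, adjusted p 0.0218) and the high dose (-0.93, SE 0.21, 0.00639). Control replicate 5 read -0.07 for Sdc2 and the other controls -1.78 to -1.54, and without it the changes were -0.51 (not called) and -0.59. The medium dose call was also lost without control replicate 3 or medium dose replicate 5, and without slide 1, 2 or 4. Median centring (limma adjusted p 0.185), the scanner log ratio (0.0706) and a fit of only the groups compared (0.0731) lost it too. With the scanner log ratio the high dose call of Sdc2 was lost as well (0.0666). Itga6, the alpha subunit of the main epithelial laminin integrins, rose at the high dose (0.92, SE 0.19, adjusted p 0.00294), while its change at the low dose was 0.05. That call was lost with median centring (limma adjusted p 0.0701) and without slide 1 (0.75, adjusted p 0.124). Itga6 was also higher at the high than at the low dose (0.87, adjusted p 0.0399), a call kept in 9 of 22 fits that left out 1 array. Its beta partners Itgb1 and Itgb4 and the dystroglycan gene Dag1, also named after their values were seen, were not called, at 0.09, -0.14 and -0.61 at the high dose. For Dst another probe was called at the high dose, where the counted probe was below the fold threshold (0.46, limma adjusted p 0.0473).

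Of 13 genes for enzymes that build the laminin-binding sugar of dystroglycan 12 were detected, with medians of 0.08, 0.11 and 0.06. B3galnt2, which adds a sugar of that chain, was the 1 gene called, higher at the medium dose (0.79, SE 0.14, limma adjusted p 0.00127) and the high dose (0.67, SE 0.14, 0.00256). Of all detected probes 2.72% and 3.34% were called higher at these doses. Both B3galnt2 calls were lost with median centring (limma adjusted p 0.103 and 0.236) and without the slide term (0.116 and 0.0856). Of 12 genes for proteases that cut laminin or activate such proteases 10 were detected, with 1 called higher at each dose and 1, 1 and 2 called lower (medians -0.07, -0.29 and -0.11), where 3.32%, 5.69% and 7.58% of all detected probes were called in either direction. Mmp3, a matrix metalloprotease, rose at each dose by 1.93 (SE 0.23), 2.07 (SE 0.23) and 1.77 (SE 0.23), with adjusted p of 3.28e-05, 1.13e-05 and 2.65e-05. Its control arrays read -1.66, -1.72, -2.53, -2.86 and -1.97, and its high dose arrays -1.25 to 0.16 with a median of -0.33, so the groups did not overlap. Plat, the tissue plasminogen activator, fell at each dose (-0.84, -0.74 and -0.77, SE 0.15 each, adjusted p 0.00179, 0.00417 and 0.0014). With the scanner log ratio its medium and high dose calls were lost (-0.88 and -0.90, limma adjusted p 0.118 and 0.0787). The medium dose call was also lost without slide 1 (-0.64, limma adjusted p 0.145). Mmp2, a gelatinase, was called lower at the high dose (-0.83, SE 0.24, adjusted p 0.0348), with changes of -0.69 and -0.81 at the lower doses. That call was kept in 13 of 22 fits that left out 1 array, and lost without control replicate 1, 2, 3 or 5, low dose replicate 5 or high dose replicate 1, 3, 5 or 6. With the replicate block Mmp2 was also called at the low and medium doses (-0.69 and -0.81, adjusted p 0.0135 and 0.00338).

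**Figure D5:**
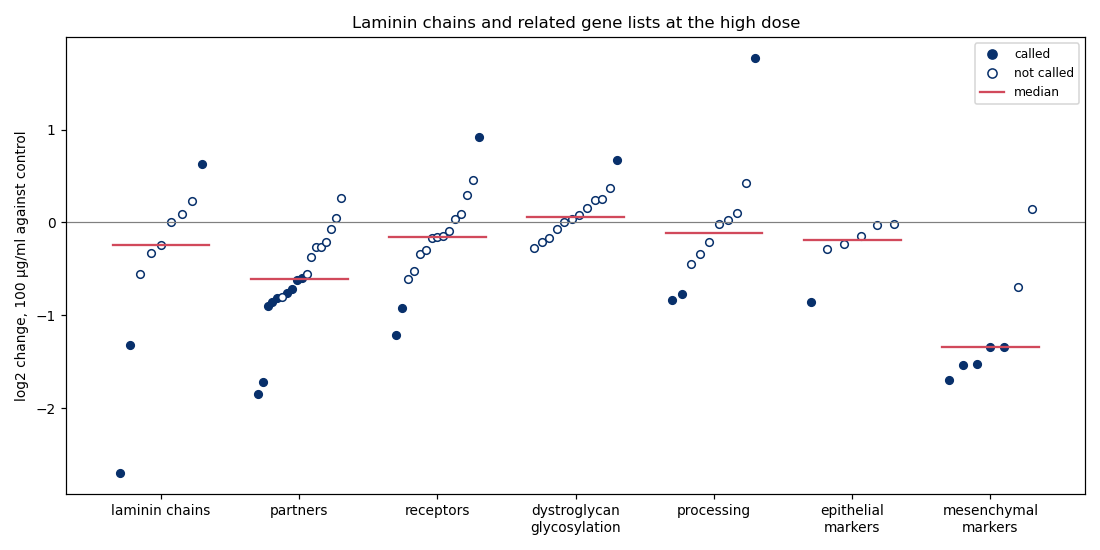
Log2 change at 100 µg/ml against control (vertical axis) of each detected gene of the laminin chains, their basement membrane partners, receptors, dystroglycan glycosylation enzymes and proteases, and of epithelial and mesenchymal markers, with filled points for called genes and a line at each list's median. The partners have a median of -0.61 with 9 of 18 called lower, and the mesenchymal markers a median of -1.34 with 5 of 7 called lower.

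Most, but not all, markers of mesenchymal cells were lower in the exposed arrays. Vim went the other way, at 0.14, 0.39 and 0.14 from the low to the high dose, and was not called. Acta2, at -0.37, -0.75 and -0.70, was not called either. Of 7 mesenchymal markers 4, 5 and 5 were called lower at the low, medium and high dose (medians -0.77, -1.08 and -1.34), beside 1.96%, 2.97% and 4.24% of all detected probes, among them Col1a1, Col1a2, Col3a1 and Pdgfra. All 7 were above the negative control level on 22 of 22 arrays, so none was at 0. Their mean log2 ratio lay between 0.18 and 0.42 in the controls, -0.95 and 0.16 at the low dose, -1.03 and -0.43 at the medium dose and -1.09 and -0.50 at the high dose, with no overlap with the controls at any dose. Of 6 detected epithelial markers 0, 1 and 1 were called lower, Krt7 being the 1, and their mean log2 ratio overlapped between groups, at -3.23 to -2.48 in the controls and -3.24 to -2.86 at the high dose. Of 6 alveolar type 2 and airway markers 3 were detected and 0 called, with median changes of 0.11, 0.40 and 0.49 and a mean log2 ratio of 0.28 in the controls and 0.63 at the high dose. None of 2 detected endothelial or 2 detected leukocyte markers was called, and their mean log2 ratios at the high dose were -0.19 and -1.95. In a bulk culture, fewer cells of a kind and less RNA per cell cannot be told apart. The part of these markers in the laminin changes was not tested.

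The 5 genes whose ratios followed those of Lama1 most closely over the 22 arrays, among 10129 named genes detected in the controls and with a value on every array, were Smtnl2 (Pearson's r 0.963), Cd55 (0.961), Hrct1 (0.960), Aldh1a7 (0.960) and Rnase10 (0.954). Genes with a value left out on any array, Nid2, Mmp2 and Sdc2 among them, were not ranked. Slide means were removed first, and the arrays share the division into control and exposed, which alone sets genes with a like change side by side. Cd55, a regulator of complement on the cell surface, changed by -1.85, -2.21 and -2.27 at the 3 doses, close to Lama1, whereas Rnase10 changed by -0.69, -0.93 and -0.98.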

How the data were processed

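Per the labels and the file headers, the authors hybridised FE1 RNA (Cy5) with reference RNA (Cy3) on Agilent mouse arrays and deposited Feature Extraction 10.7.3.1 files with spot intensity values, a log10 ratio from the scanner software and, in the series matrix, log2 values normalized by the authors. Median spot intensities without background subtraction were loess-normalized within each array in limma 3.58.1 (R 4.3.3), leaving out 3671 control spots and outlier spots. A probe was detected above the 5% trimmed mean plus 3 trimmed SDs of 308 negative control spots. List and marker genes counted as detected with 4 such arrays in any group, and a call needed 4 such arrays in either group compared. The fit held all 22 arrays with dose group and slide as terms, and stands in for the MAANOVA test of the study. Replicate numbers largely coincided with slides: after group means were removed, arrays of the same number correlated at 0.18 to 0.82 on a slide and 0.27 to 0.50 across slides, other numbers on a slide at 0.04 to 0.55, and arrays sharing neither had a median of -0.18. The numbers thus pair the arrays, and the block was also fitted. The number of arrays limits the precision.

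The log10 ratios the authors deposited were exactly 0 for 25.9% of values, and they and the series matrix served as alternatives. Other alternatives were normexp correction, median centring, other thresholds and filters, and arrays or slides left out, applied to the related lists after seeing the data. Symbols came from a RefSeq table of GRCm38.p6 through each probe's accession, used for names and promoter sequence only. The members and lists were chosen with earlier results of these data known. By rule every laminin gene was described by its brightest probe, and of each related list up to 3 highest and 3 lowest called genes at the high dose were named, with the 5 genes most like Lama1. The fit was tested on simulated data with independent noise on each array, so that test cannot check the p-values where arrays are not independent.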

Additional observations from a re-analysis of the deposited data

Results flagged for a closer look

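In 4 of 44 groups of arrays, taken per laminin probe and dose, 1 array lay far from the others by Dixon's criterion, which chance meets in about 1 in 20 groups. The brighter Lama2 probe read -1.02 on low dose replicate 6 (slide 4), where the next array read -1.68. Lama3 read 1.39 on low dose replicate 4 (slide 3), with the next at 0.33, and -0.22 on high dose replicate 6 (slide 4), with the next at 0.20. Lamb1 read 1.67 on high dose replicate 4 (slide 3), with the next at 1.97, still above every control array.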

How the results depend on the processing

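Over 40 alternatives, 1333 of 1440 changes of single laminin genes kept their direction and side of the threshold, 67 turned direction, 32 lost and 8 gained a call. The medium dose count fell from 4 to 2 with the scanner log ratio, with median centring and with a 2-fold threshold. With the replicate block the counts by rising dose were 3, 4 and 4, with 0 for high against low, and Lama5 at the high dose was the laminin call it changed. Among the named related genes it changed that of Mmp2 at the low and medium doses. With 1 array left out they were 2 to 3, 3 to 4, 3 to 4 and 0. Over all probes the counts ranged from 266 to 1933 for the low dose (1017 as reported), 448 to 2974 for the medium (1692) and 714 to 4498 for the high (2448), from a 2-fold to no fold threshold, and from 4 (median centring) to 200 (without low dose replicate 1) for high against low (86).

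Direction turned only in changes that were not called. Lama2 at the high dose became -0.0374 with normexp, -0.0338 with the series matrix, -0.0352 with median centring, -0.0356 with the replicate block, -0.0364 with only the groups compared, and -0.0077, -0.0679 and -0.0364 without slide 1, 3 or 5. At the medium dose it became -0.0172 with normexp, -0.002 with median centring, and -0.0731 and -0.0509 without slide 1 or 2. With the scanner log ratio the high minus low difference became 0.0221 for Lama2, -0.1102 for Lamb1, 0.0765 for Lamb2 and 0.6359 for Lamb3, and Lamb3 at the low dose -0.3925. With median centring that difference became 0.0867 for Lamb2 and 0.0254 for Lamb3, Lamb3 at the medium dose 0.0054 and Lamc1 at the low dose -0.1324. With the series matrix Lamb3 became 0.0296 (high minus low) and 0.0362 (medium dose). Without a slide, high minus low became 0.0988 for Lama3 (slide 3), 0.0169 for Lama4 (slide 5), -0.1627 for Lama5 (slide 1), 0.0633 for Lamb3 (slide 4), and 0.0181, 0.0079 and 0.0694 for Lamb2 (slides 2, 3 and 4), Lamb3 at the medium dose 0.1238 (slide 4) and Lamc1 at the low dose -0.0522 (slide 3). With 1 array left out, ranges that crossed 0 were -0.1311 to 0.1171 and -0.1101 to 0.1381 for Lama2 at the high and medium dose, -0.1842 to 0.121, -0.117 to 0.0169, -0.0706 to 0.1911, -0.1015 to 0.0485 and -0.1291 to 0.0601 for high minus low in Lama3, Lama4, Lama5, Lamb2 and Lamb3, -0.0049 to 0.27, -0.16 to 0.12 and -0.0521 to 0.2229 for Lamb3 at the low, medium and high dose, and -0.0552 to 0.061 for Lamc1 at the low dose. The cause was not tested. Lama1, Lama2 and Lamb3 were limited by signal near background.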
